A study of Homo sapiens with 12 samples.

Results

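Genes of extracellular purine and lysophospholipid signaling were followed in the HL-60/S4 TNF-α series, 10 of the 58288 genes in the deposited count table. They are the adenosine receptors *ADORA2A*, *ADORA2B* and *ADORA3*, the enzyme gene *ADA*, the ATP receptors *P2RX4*, *P2RX7* and *P2RY2*, the lysophosphatidic acid (LPA) receptors *LPAR2* and *LPAR5* and the sphingosine 1-phosphate (S1P) receptor *S1PR4*. They were found by gene symbol and had been chosen by family and by measured values. These values were their TNF-α responses within each cell type and their levels in these 12 libraries. They are therefore given as a description, with no p-value printed.

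HL-60/S4 is an established human promyelocytic leukemia line, and all 12 libraries came from this 1 line at 8 passages. RNA was depleted of ribosomal RNA and sequenced as paired ends. There were 4 groups of 3 libraries, each library from its own flask: undifferentiated cells (promyelocytes) with vehicle (water) or with TNF-α, and granulocytes with vehicle or with TNF-α. Granulocytes had received 4 days of all-trans retinoic acid (ATRA, 1 µM). Treated flasks held TNF-α (16 ng/mL) during the last 2 h, and every flask was in calcium-supplemented medium. Promyelocytes and granulocytes were separate experiments, so cell type and experiment cannot be told apart and levels between them were compared without a test. Differences between their responses were tested, but in these too cell type and experiment cannot be told apart. Libraries held 22829189 to 31895061 counted read pairs.

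The labels were checked against marker genes. The summed level of 5 granule protein genes of promyelocytes (*MPO*, *ELANE*, *PRTN3*, *AZU1* and *CTSG*) was 7316 to 8142 CPM (normalized counts scaled to a library of 1000000 read pairs) in vehicle promyelocytes and 2132 to 2344 CPM in vehicle granulocytes. It was 6062 to 6962 CPM in promyelocytes with TNF-α, and *ELANE* itself was low in both vehicle groups, at a mean of 1.79 and 0.0223 CPM. The 7 granulocytic genes (*ITGAM*, *ITGAX*, *CSF3R*, *FPR1*, *NCF1*, *CYBB* and *CYBA*) summed to 221 to 263 CPM in vehicle promyelocytes and 4056 to 4305 CPM in vehicle granulocytes. With TNF-α they summed to 328 to 354 CPM in promyelocytes and 4861 to 5252 CPM in granulocytes, and the part of these shifts in the results was not tested. The 7 genes did not move together: 2 rose and 1 fell in promyelocytes, and 4 rose and 2 fell in granulocytes. Of 5 monocyte and macrophage genes, *CD163*, *MRC1* and *MSR1* had at most 3 counts in every library, and *CSF1R*, at 49.7 CPM in vehicle granulocytes, made up most of the list's sum of 49.1 to 51.2 CPM. That sum was 30.1 to 33.8 CPM in granulocytes with TNF-α, and its part in the results was not tested. All 5 TNF response genes checked (*TNFAIP3*, *NFKBIA*, *ICAM1*, *BIRC3* and *TRAF1*) rose in both cell types.

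Cells release ATP and other nucleotides when they are activated or damaged. ATP opens P2X ion channels and, with UTP, acts on G protein-coupled P2Y receptors, while ectoenzymes on the cell surface break it down to adenosine, which acts on its own receptors and is removed by adenosine deaminase. In neutrophils, ATP acting on P2Y2 and adenosine acting on A3 are known to amplify chemotaxis, whereas the product of *ADORA2A* raises cyclic AMP and restrains activation. LPA and S1P are lysophospholipids that act on their own G protein-coupled receptors and control the migration and survival of blood cells.

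For 8 of the 10 genes a stretch before the transcription start was found by symbol in RefSeq (GRCh38.p14), and *ADORA2A* and *P2RY2* were not matched. The 250 bases before the start are shown for 4 genes on which the results turn: *ADORA3*, with the largest decrease, the adjacent *P2RX7* and *P2RX4*, both of which were higher with TNF-α in promyelocytes, and *S1PR4*, which was lower in granulocytes. Starts are those of RefSeq and differ from those of the annotation used for counting. The stretches of *S1PR4* and *P2RX4* lie within the counted genes, which begin at chr19:3172346 and chr12:121209857. Those of *ADA*, *LPAR2* and *LPAR5*, not shown, also lie within the counted gene, and the other stretches lie partly within it. Capitals mark matches to the motifs searched.
ADORA3 (chr1:111503634-111503883, minus strand): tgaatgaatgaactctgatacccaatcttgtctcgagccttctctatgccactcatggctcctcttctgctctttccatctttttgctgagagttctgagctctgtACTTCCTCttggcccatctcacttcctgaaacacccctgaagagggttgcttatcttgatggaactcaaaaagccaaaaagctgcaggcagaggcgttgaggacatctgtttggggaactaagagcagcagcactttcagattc
P2RX7 (chr12:121132626-121132875, plus strand): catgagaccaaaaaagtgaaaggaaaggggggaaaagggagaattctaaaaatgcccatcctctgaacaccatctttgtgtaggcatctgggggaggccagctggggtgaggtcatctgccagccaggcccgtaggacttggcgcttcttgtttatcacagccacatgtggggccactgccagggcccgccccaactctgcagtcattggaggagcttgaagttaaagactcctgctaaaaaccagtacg
P2RX4 (chr12:121209879-121210128, plus strand): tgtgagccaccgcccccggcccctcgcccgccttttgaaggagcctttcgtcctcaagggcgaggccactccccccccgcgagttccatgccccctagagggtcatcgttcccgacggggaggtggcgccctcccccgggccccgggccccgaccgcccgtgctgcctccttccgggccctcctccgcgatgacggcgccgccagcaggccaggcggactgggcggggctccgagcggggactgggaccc
S1PR4 (chr19:3178519-3178768, plus strand): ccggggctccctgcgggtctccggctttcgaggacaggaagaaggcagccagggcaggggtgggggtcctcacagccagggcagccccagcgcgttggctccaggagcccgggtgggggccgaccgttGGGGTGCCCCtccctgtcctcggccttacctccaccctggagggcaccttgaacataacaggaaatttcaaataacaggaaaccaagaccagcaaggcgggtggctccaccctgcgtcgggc

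Both strands of each stretch were searched for 4 motifs of factors known to act in myeloid or TNF-α treated cells: the NF-κB consensus (the 10-letter kappaB motif), the AP-1 site TGANTCA, the cyclic AMP response element TGACGTCA and the PU.1 core GAGGAAGT. Among 35097 RefSeq promoters of the same length, the kappaB consensus occurred in 9.95%, the AP-1 site in 6.57%, the cyclic AMP response element in 1.65% and the PU.1 core in 2.17%. The stretch of *S1PR4* held the kappaB consensus at bases -122 to -113, counted back from -1 as the last base before the start, and that of *ADORA3* held the PU.1 core on the opposite strand at -144 to -137. Among the stretches not shown, *LPAR2* held the kappaB consensus at -83 to -74 and at -22 to -13 and the AP-1 site at -246 to -240, and *ADORA2B* held the kappaB consensus at -52 to -43. None of the 4 motifs was found in *ADA*, *P2RX4*, *P2RX7* or *LPAR5*, and no match overlapped another. These are matches of letters and do not show binding. GC content ran from 47.2% in *ADORA3* and 53.2% in *P2RX7* to 76.0% in *P2RX4* and 80.0% in *ADA*, against a median of 58.0% over all promoters. The stretches with the kappaB consensus were above that median, at 66.8% in *S1PR4*, 75.2% in *ADORA2B* and 78.4% in *LPAR2*. The shares of promoters with each motif were not matched for GC content.

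Responses to TNF-α were measured within each cell type as the log2 fold change of TNF-α over vehicle, with its standard error (SE), from edgeR's quasi-likelihood fit of all genes. A gene was called where its Benjamini-Hochberg adjusted p over all genes tested was under 0.05. For the 10 genes a call only describes the fit and is no independent support, since they were chosen by these responses. In promyelocytes 4 of the 9 genes that passed the expression filter were called, where 14.8% of all 16250 genes tested were: *P2RX4* and *P2RX7* were higher, and *P2RY2* and *LPAR5* were lower. In granulocytes 6 of 8 were called, where 49.2% of 16944 were: *ADORA2A*, *P2RX4* and *ADA* were higher, and *ADORA3*, *LPAR5* and *S1PR4* were lower. The contrast itself is among the values known when the genes were listed, so nothing is read from these counts. The TNF-α and vehicle libraries did not overlap in 6 of the 9 genes tested in promyelocytes, against 30.9% of all genes tested. In granulocytes they did not overlap in 6 of the 8, against 55.1%. For the same reason nothing is read from these counts. In such bulk samples fewer cells with a transcript and less of it per cell cannot be told apart. *ADORA2B* did not pass the filter in either cell type and *P2RX7* did not pass in granulocytes.

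**Figure D1:**
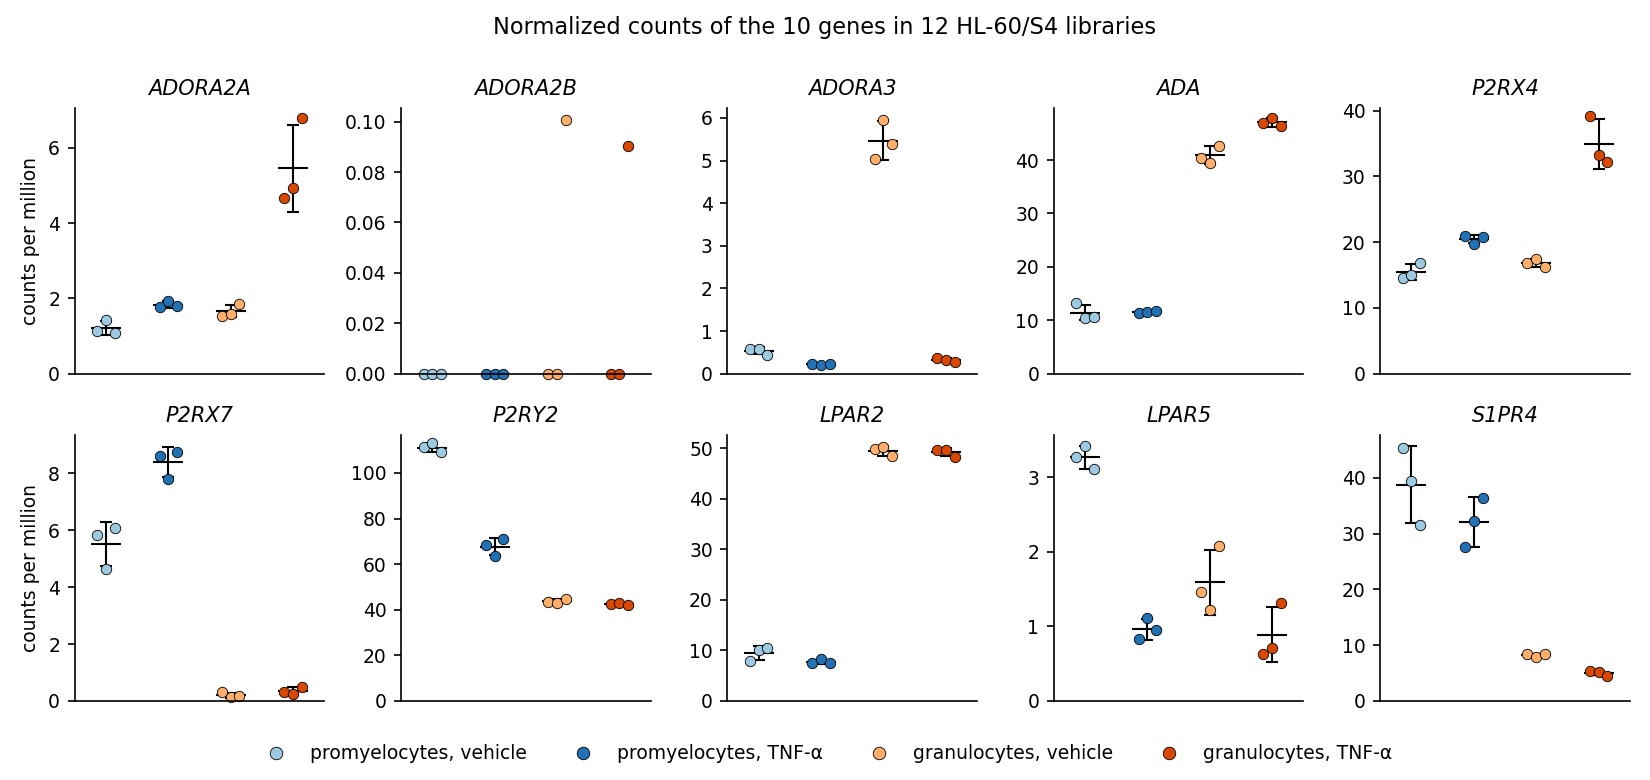
CPM (vertical axes, each from 0, a scale per gene) of the 10 genes in each of the 12 libraries, as points by group, with the mean and SD of 3 libraries as a bar (left out for *ADORA2B*, which is at 0 in most libraries). *ADORA3* stands at 5.04 to 5.95 CPM in vehicle granulocytes and under 1 CPM in the other 3 groups, and *P2RX7* is high in promyelocytes and near 0 in granulocytes.

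The adenosine receptors moved in opposite directions in granulocytes. *ADORA2A* encodes the adenosine receptor that stimulates adenylyl cyclase (chr22:24417879-24442360, plus strand, hg38). In granulocytes it stood at 1.54, 1.59 and 1.84 CPM with vehicle and at 4.65, 4.94 and 6.78 CPM with TNF-α. All 3 treated libraries were above all 3 vehicle libraries, and the log2 fold change was 1.70 (SE 0.19), or 3.24-fold. In promyelocytes the values were 1.14, 1.43 and 1.07 CPM with vehicle and 1.77, 1.93 and 1.80 CPM with TNF-α. These groups did not overlap either, but the log2 fold change of 0.62 (SE 0.24) was not called. The granulocyte response exceeded that of promyelocytes by 1.12 on the log2 scale (SE 0.30), a difference that was called.

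The exons of *ADORA2A* share 2380 of their 4193 bases (56.8%) with the readthrough gene *SPECC1L-ADORA2A* on the same strand, and read pairs that fall on both are left out of the counts. The readthrough gene, added after its overlap was seen, had 2 to 8 counts in any library, and its groups overlapped in both cell types. *ADORA2A* itself rested on few counts, 31 to 57 a library in promyelocytes and 40 to 150 a library in granulocytes. Taken over the unshared bases alone, its level in granulocytes was 0.914 CPM per kilobase with vehicle and 3.01 with TNF-α.

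*ADORA3* encodes A3, a receptor that inhibits adenylyl cyclase (chr1:111499429-111503760, minus strand, hg38). In granulocytes it stood at 5.04, 5.95 and 5.40 CPM with vehicle and at 0.361, 0.322 and 0.271 CPM with TNF-α. The groups were far apart: 131 to 180 counts against 6 to 9, a log2 fold change of -4.10 (SE 0.25), or 17.1-fold lower. This was the largest change among the 10 genes. In promyelocytes the gene stood at 0.588, 0.588 and 0.449 CPM with vehicle and at 0.226, 0.214 and 0.221 CPM with TNF-α. The treated libraries were again all lower, with 6 or 7 counts against 13 to 18, but the log2 fold change of -1.26 (SE 0.44) was not called. It was called with all 12 libraries in 1 fit (-1.28) and with the libraries' trends with GC content and gene length removed (-1.28). The response in granulocytes was lower than that in promyelocytes by 2.80 on the log2 scale (difference -2.80, SE 0.50), which was called.

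*ADORA3* shares 484 of its 2687 exon bases (18.01%) with *TMIGD3*, an immunoglobulin domain gene read from the same strand, and pairs on the shared bases count for neither. *TMIGD3* stood at 3.19, 2.22 and 2.35 CPM in vehicle granulocytes and at 0.678, 0.716 and 0.768 CPM in treated ones, a log2 fold change of -1.84 (SE 0.27), also called. In promyelocytes it ranged from 0.552 to 0.919 CPM with vehicle and from 0.527 to 0.964 CPM with TNF-α, and the groups overlapped. The difference between the responses of *TMIGD3* was -1.79 (SE 0.43) and was called. Read pairs on exon bases outside the shared ones are counted for 1 gene each. *ADORA3* lies within the span of *TMIGD3* (chr1:111483348-111563962, minus strand, hg38), so pairs from unspliced *TMIGD3* RNA there would count as *ADORA3*. The part of such pairs in the decrease of *ADORA3* was not tested.

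*ADORA2B* encodes A2B, which responds to higher adenosine concentrations (chr17:15944917-15975746, plus strand, hg38). It had 0 counts in all 6 promyelocyte libraries. In granulocytes 1 vehicle library had 3 counts, 1 treated library had 2, and the other 4 had 0. At these depths 3 counts, the limit that a count of 0 allows, correspond to 0.0945 to 0.136 CPM, and floors of this kind cover counting error only.

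*ADA*, the deaminase that turns adenosine into inosine (chr20:44619522-44652233, minus strand, hg38), changed little. Its granulocyte libraries stood at 40.4, 39.5 and 42.7 CPM with vehicle and at 46.9, 47.9 and 46.3 CPM with TNF-α. The groups did not overlap, and the log2 fold change of 0.19 (SE 0.06), or 1.14-fold, was called. That call was lost with the trends with GC content and length removed, where the value was 0.10. In promyelocytes the vehicle libraries, at 13.2, 10.5 and 10.7 CPM, enclosed the treated ones, at 11.3, 11.5 and 11.7 CPM, and the log2 fold change was 0.03 (SE 0.10).

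The 2 ATP-gated channels were higher with TNF-α in promyelocytes. P2X4 and P2X7 are trimeric cation channels, of which P2X7 needs much more ATP to open and is known for setting off the release of interleukin 1β. Their genes lie next to each other on chromosome 12 on the plus strand, *P2RX7* at chr12:121132819-121188032 and *P2RX4* at chr12:121209857-121234106 (hg38), with 21824 bases and 1 other annotated gene between them. They share no exon bases. *P2RX4* stood at 14.5, 14.96 and 16.8 CPM in vehicle promyelocytes and at 20.9, 19.7 and 20.8 CPM with TNF-α. Every treated library was higher, by a log2 fold change of 0.43 (SE 0.09). Granulocytes held 16.8, 17.5 and 16.2 CPM with vehicle and 39.2, 33.3 and 32.1 CPM with TNF-α. That was 2.05-fold, a log2 fold change of 1.04 (SE 0.08), and the granulocyte response was larger than the promyelocyte one by 0.64 (SE 0.12), which was called.

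*P2RX7* stood at 5.85, 4.63 and 6.07 CPM in vehicle promyelocytes and at 8.61, 7.79 and 8.76 CPM with TNF-α. The groups did not overlap and the log2 fold change was 0.63 (SE 0.13), or 1.54-fold. In granulocytes the gene was low, with 8, 4 and 5 counts with vehicle and 7, 7 and 11 with TNF-α. These groups overlapped, and the counts were too few for the expression filter. In vehicle promyelocytes the mean level of *P2RX7* was 27.2 times that in vehicle granulocytes, while the levels of *P2RX4*, its neighbor, overlapped between the vehicle groups of the 2 cell types.

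*P2RY2* encodes P2Y2, the receptor for ATP and UTP (chr11:73218298-73236352, plus strand, hg38). In promyelocytes it stood at 111, 113 and 109 CPM with vehicle and at 68.4, 63.6 and 71.2 CPM with TNF-α. No treated library came near a vehicle library, and the gene was 1.61-fold lower with TNF-α (log2 fold change -0.69, SE 0.06). Granulocytes were at 43.6, 43.2 and 44.6 CPM with vehicle and at 42.5, 42.9 and 42.0 CPM with TNF-α. The treated libraries were all slightly lower, by a log2 fold change of -0.06 (SE 0.06) that was not called. With the GC content and length trends removed it was -0.19 and was called. The responses differed by 0.67 (SE 0.08), which was called. Per kilobase *P2RY2* was the highest of the 10 genes in both promyelocyte groups.

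The LPA receptor genes differed in their response. LPA5 (*LPAR5*, chr12:6618835-6636447, minus strand, hg38) and LPA2 (*LPAR2*, chr19:19623668-19628930, minus strand, hg38) bind the same lipid and belong to different branches of the receptor tree, LPA2 to the classical family and LPA5 to the group nearer to the P2Y receptors. *LPAR5* stood at 3.27, 3.42 and 3.11 CPM in vehicle promyelocytes and at 0.827, 1.11 and 0.945 CPM with TNF-α. Treated libraries had 22 to 31 counts against 90 to 100, a log2 fold change of -1.74 (SE 0.22), or 3.33-fold lower. In granulocytes it stood at 1.46, 1.22 and 2.08 CPM with vehicle and at 0.633, 0.716 and 1.31 CPM with TNF-α. Here the groups overlapped. The log2 fold change of -0.87 (SE 0.31) was called by edgeR, but not at a threshold of 0.01 or by DESeq2 (-0.86). Nor was it called without vehicle library 3 (-0.62), without treated library 1 (-0.69) or without treated library 2 (-0.72). The difference between the responses, 0.90 (SE 0.39), was not called, and was called without that vehicle library, at 1.15. Without treated granulocyte library 3 it was 0.53.

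*LPAR2* stood at 49.8, 50.3 and 48.4 CPM in vehicle granulocytes and at 49.7, 49.7 and 48.3 CPM with TNF-α. The groups overlapped, and the log2 fold change was -0.02 (SE 0.06). It was -0.18 and called with the GC content and length trends removed. In promyelocytes it stood at 7.97, 10.1 and 10.4 CPM with vehicle and at 7.41, 8.21 and 7.59 CPM with TNF-α. The log2 fold change of -0.27 (SE 0.12) was not called with all 6 libraries, but was called without vehicle library 1, which lay among the treated ones (-0.39), and with all 12 libraries in 1 fit (-0.29). The difference between the responses was 0.28 (SE 0.12), not called with all libraries and called without that vehicle library (0.40).

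*S1PR4* encodes S1P4, an S1P receptor found mainly on blood cells (chr19:3172346-3180332, plus strand, hg38). In granulocytes it stood at 8.35, 7.87 and 8.34 CPM with vehicle and at 5.29, 5.16 and 4.52 CPM with TNF-α. The groups were apart and the log2 fold change was -0.73 (SE 0.12), or 1.65-fold lower. In promyelocytes the libraries were spread widely, at 45.3, 39.4 and 31.5 CPM with vehicle and 27.6, 32.3 and 36.4 CPM with TNF-α. They overlapped, and the log2 fold change of -0.24 (SE 0.10) was not called. It was called without vehicle library 3 (-0.37) and with no expression filter (-0.24). The difference between the responses, -0.44 (SE 0.18), was not called, and was called by DESeq2 (-0.50), with its size factors (-0.49), with no filter (-0.53), with the trends with GC content and length removed (-0.80), and without vehicle library 1 (-0.57) or treated library 1 (-0.54) of the promyelocytes.

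**Figure D2:**
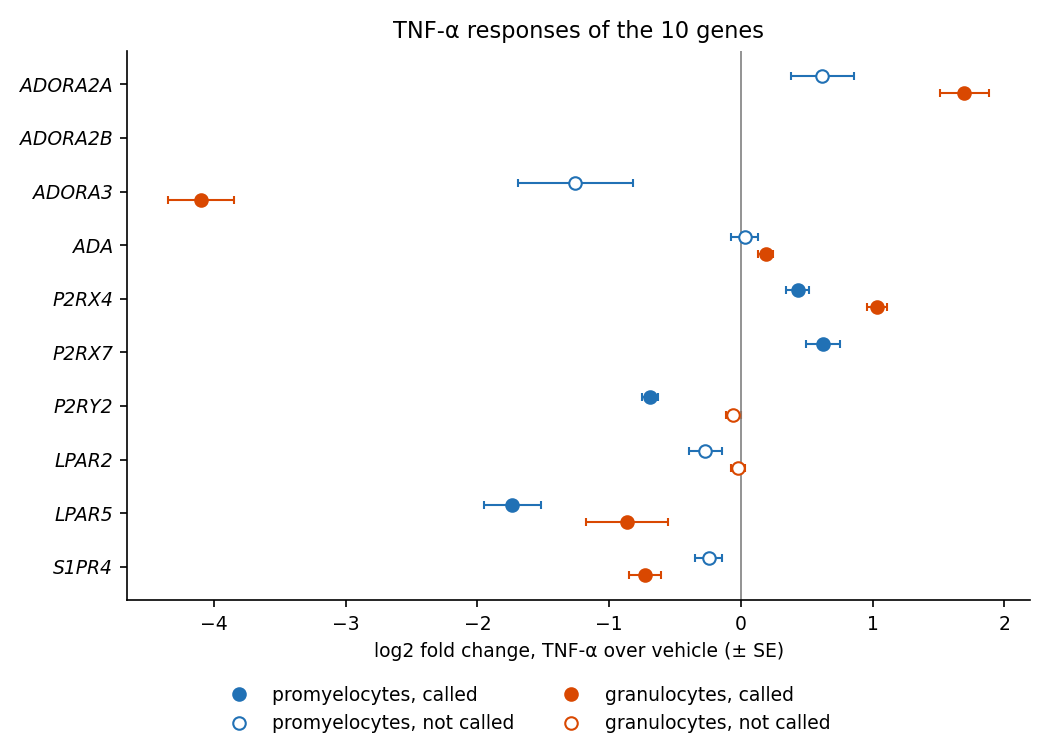
Log2 fold change of TNF-α over vehicle (horizontal axis) with its SE for each of the 10 genes, promyelocytes in blue and granulocytes in orange, filled where the gene was called. *ADORA2B* and, in granulocytes, *P2RX7* have no point because they did not pass the expression filter; *ADORA3* in granulocytes lies farthest from 0, at -4.10.

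In the fit of all 12 libraries, the response differed between the cell types in 4 of the 9 genes tested, where 24% of 18124 genes were called: *ADORA2A*, *P2RX4* and *P2RY2* were higher in granulocytes and *ADORA3* lower. Of all genes tested, 14.1% were called higher and 9.88% lower, and with DESeq2's size factors 11.7% and 12.5%. The difference is computed from the responses by which the genes were chosen, so nothing is read from this count either. A called difference also cannot be assigned to cell type, since each cell type was its own experiment.

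Levels in the 2 vehicle groups were set side by side with no test. In 8 of the 9 genes that passed the filter over all 12 libraries the groups did not overlap. Of all 18124 genes that passed, 74.4% were apart in the same way, so the count of 8 is near that background. *ADORA2B* did not pass, and its groups overlapped. Over all genes 37.3% were higher and 37.1% lower in granulocytes. Higher in granulocytes were 4 genes: *ADORA3* by 10.1-fold, *LPAR2* by 5.22-fold, *ADA* by 3.57-fold and *ADORA2A* by 1.36-fold. Higher in promyelocytes were 4 genes: *P2RX7* by 27.2-fold, *S1PR4* by 4.73-fold, *P2RY2* by 2.54-fold and *LPAR5* by 2.06-fold.

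Between genes, levels were compared per kilobase of exon, counting only the bases that no other gene shares, since pairs on shared bases are not counted. In vehicle promyelocytes *P2RY2* led with 38.8 ± 0.700 CPM per kilobase (SD, n = 3), followed by *S1PR4* with 23.3 ± 4.15, *ADA* with 4.01 ± 0.522, *LPAR2* with 3.18 ± 0.445 and *P2RX4* with 1.89 ± 0.146. *LPAR5* and *P2RX7*, at 1.00 and 0.995, overlapped, and *ADORA2A* (0.670) and *ADORA3* (0.246) came last among the genes with counts. In vehicle granulocytes *LPAR2* led with 16.6 ± 0.322, followed by *P2RY2* with 15.3 ± 0.258, *ADA* with 14.3 ± 0.588, *S1PR4* with 4.92 ± 0.164, *ADORA3* with 2.48 ± 0.210 and *P2RX4* with 2.06 ± 0.0785. *ADORA2A* (0.914) and *LPAR5* (0.487) came next and did not overlap, whereas *P2RX7* (0.0365) and *ADORA2B* (0.0131) did. In granulocytes with TNF-α *ADORA3* was in the eighth place, at 0.144, against the fifth with vehicle, and *ADORA2A*, at 3.01, overlapped with *S1PR4*, at 2.997. In promyelocytes with TNF-α *LPAR5* was in the eighth place, at 0.295, below *ADORA2A* at 1.01.

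The pathways these genes belong to were followed through 74 other genes in 5 lists. The lists were written from textbook knowledge but with earlier results of these data known. Their counts, medians and p-values are therefore a description. In promyelocytes 38 were tested, of which 9 rose and 6 fell, and in granulocytes 46, of which 19 rose and 16 fell. As a share of the genes tested, all genes rose in 8.15% and fell in 6.65% in promyelocytes, and rose in 24.4% and fell in 24.8% in granulocytes. The median log2 fold change of the tested genes of the lists was -0.09 in promyelocytes and 0.08 in granulocytes, and that of all genes -0.01 and -0.00470. Genes of these lists are named by their rank of log2 fold change among those called, at most 4 per list and cell type, with edgeR adjusted p-values over all genes tested.

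Of 13 other purinergic receptors, 5 were tested in promyelocytes, where 1 fell, and 8 in granulocytes, where 2 rose and 2 fell. *P2RY6*, the receptor for UDP, went in opposite directions. It fell in promyelocytes from 21.4 ± 1.11 to 13.3 ± 0.496 CPM (SD, n = 3), with a log2 fold change of -0.66 (SE 0.08, adjusted p = 8.12e-06), and rose in granulocytes from 28.0 ± 2.38 to 39.9 ± 1.22 CPM, by 0.50 (SE 0.07, adjusted p = 6.2e-08). The difference of 1.19 (SE 0.11) was called. *P2RX1*, an ATP-gated channel of neutrophils and platelets, rose in granulocytes by 0.98 (SE 0.10, adjusted p = 2.24e-10), from 6.95 ± 0.602 to 13.9 ± 0.609 CPM, and had a log2 fold change of -0.24 (SE 0.10, adjusted p = 0.104) in promyelocytes. *P2RY14*, the receptor for UDP-glucose, fell in granulocytes from 25.0 ± 0.771 to 9.09 ± 0.622 CPM (log2 fold change -1.47, SE 0.08). *P2RX5* fell in granulocytes by 0.48 on the log2 scale (adjusted p = 0.0149). That call was not made at a threshold of 0.01, by DESeq2 or in 1 fit of all 12 libraries. Nor was it made without vehicle library 1 (-0.45) or without treated library 3 (-0.34). *P2RX5* shares 41.6% of its exon bases with the readthrough gene *P2RX5-TAX1BP3*. The median log2 fold change of the list was -0.24 in promyelocytes and 0.09 in granulocytes.

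Of 18 genes that break down, release or take up nucleotides and adenosine, 8 were tested in each cell type. In granulocytes 6 fell and 1 rose, with a median log2 fold change of -0.35, and in promyelocytes 1 fell and 1 rose, with a median of -0.09. *ENTPD1*, which encodes CD39, the ectoenzyme that removes phosphate groups from ATP and ADP, fell in granulocytes from 19.6 ± 0.881 to 9.08 ± 0.616 CPM (log2 fold change -1.13, SE 0.09, adjusted p = 1.56e-13). *ADA2*, the secreted adenosine deaminase, fell there from 2.06 ± 0.414 to 0.934 ± 0.213 CPM, by 1.15 on the log2 scale (SE 0.27, adjusted p = 0.000496). *SLC28A3*, a concentrating nucleoside transporter, fell in both cell types, with log2 fold changes of -1.02 (SE 0.12) in granulocytes and -0.43 (SE 0.09) in promyelocytes. *SLC29A1*, the equilibrative nucleoside transporter ENT1, fell in granulocytes from 209 ± 11.03 to 150 ± 12.2 CPM, with a log2 fold change of -0.49 (SE 0.05). *PANX1*, the pannexin channel through which ATP can leave the cell, rose by 0.43 (SE 0.09) in granulocytes and by 0.28 (SE 0.09, adjusted p = 0.0389) in promyelocytes. The promyelocyte call of *PANX1* was not made at a threshold of 0.01, by DESeq2, with the replicate block (0.28) or in 1 fit of all 12 libraries, and it was lost in 5 of the 6 fits that each left out 1 library, where the log2 fold change was 0.25 to 0.30. *NT5E*, the ectoenzyme CD73 that makes adenosine from AMP, was named after its values were seen and had 0 counts in all 6 vehicle libraries.

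Of 14 other lysophospholipid receptors, including relatives that bind related lipids, 4 of the 6 tested rose in promyelocytes and none fell, and 5 of the 8 tested rose in granulocytes and 2 fell. The median log2 fold change of the list was 1.27 in promyelocytes and 0.94 in granulocytes. *PTAFR*, the receptor for platelet-activating factor, rose from 1.57 ± 0.221 to 14.6 ± 2.23 CPM in promyelocytes, by 3.24 (SE 0.15, adjusted p = 3.53e-12), and from 2.17 ± 0.528 to 25.5 ± 0.0797 CPM in granulocytes, by 3.53 (SE 0.12, adjusted p = 5.5e-25). *GPR132*, a receptor linked to lysophosphatidylcholine and oxidized lipids, rose by 1.48 (SE 0.09) and 1.79 (SE 0.06). *GPR55*, a receptor for lysophosphatidylinositol, fell in granulocytes from 1.99 ± 0.148 to 0.598 ± 0.160 CPM, with a log2 fold change of -1.74 (SE 0.29). In promyelocytes *GPR55* was not tested, at 2 to 13 counts a library.

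Of the other S1P receptors, *S1PR2* and *S1PR3* rose in both cell types. *S1PR2*, which is known to restrain migration, stood at 0.133 ± 0.0200 CPM per kilobase (SD, n = 3) in vehicle promyelocytes and 0.446 ± 0.154 with TNF-α, and at 1.62 ± 0.107 and 4.00 ± 0.455 in granulocytes. Its log2 fold changes were 1.76 (SE 0.34, adjusted p = 0.00111) and 1.29 (SE 0.11, adjusted p = 1.15e-12). *S1PR3* stood at 3.77 ± 0.240 CPM per kilobase in vehicle promyelocytes and 7.74 ± 0.329 with TNF-α, and at 0.0478 ± 0.0269 and 0.248 ± 0.0510 in granulocytes, with log2 fold changes of 1.06 (SE 0.07, adjusted p = 2.06e-10) and 2.33 (SE 0.33, adjusted p = 2.63e-07). In granulocytes *S1PR3* started from 5, 20 and 12 counts with vehicle, and leaving out 1 library gave log2 fold changes of 2.01 to 2.82. *S1PR4* stood at 4.92 and 2.997 CPM per kilobase in granulocytes, so that with TNF-α the 3 libraries of *S1PR2* were all above the 3 of *S1PR4*, the reverse of their order with vehicle. *S1PR1* and *S1PR5*, named after their values were seen, had 0 counts in all 12 libraries.

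**Figure D3:**
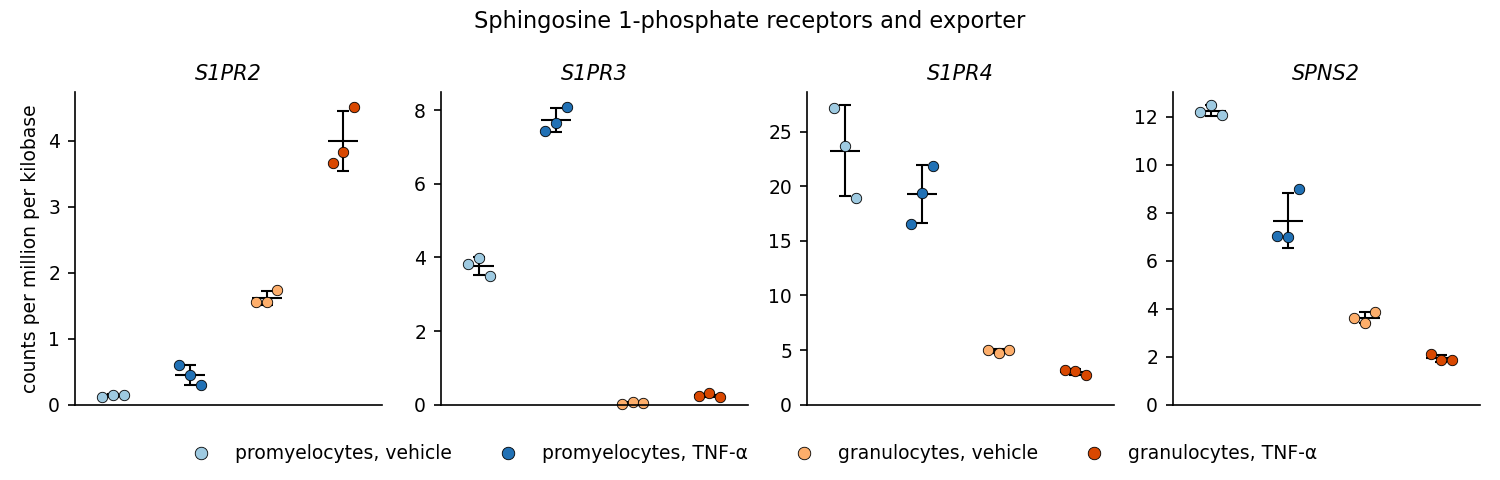
CPM per kilobase of exon (vertical axes, each from 0, a scale per gene) of the 3 S1P receptor genes with counts and of the S1P exporter gene *SPNS2* in the 12 libraries, with mean and SD of 3 libraries. *S1PR2* and *S1PR3* are higher with TNF-α in both cell types, *S1PR4* is lower with TNF-α in granulocytes and overlaps in promyelocytes, and *SPNS2* is lower in both.

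Of 13 genes that make, export or degrade LPA and S1P, 5 were tested in promyelocytes, where 1 rose and 1 fell, and 8 in granulocytes, where 4 rose and 3 fell. *SPNS2*, the exporter of S1P, fell from 50.4 ± 0.906 to 31.5 ± 4.72 CPM in promyelocytes (log2 fold change -0.65, SE 0.08, adjusted p = 8.4e-06) and from 14.9 ± 0.881 to 7.95 ± 0.590 CPM in granulocytes (-0.92, SE 0.10, adjusted p = 3.15e-10). *SGPL1*, the lyase that ends S1P signaling inside the cell, rose by 0.60 (SE 0.05) in granulocytes and by 0.23 (SE 0.07, adjusted p = 0.0208) in promyelocytes, and the promyelocyte call was lost at a threshold of 0.01, with the replicate block (0.23), and without vehicle library 3 (0.19) or treated library 1 (0.20). *SGPP2*, an S1P phosphatase gene, had 0 or 1 count in each vehicle library, 8 to 11 in treated promyelocytes and 16 to 39 in treated granulocytes. Against a floor of 3 counts per library this was at least 2.86-fold higher in promyelocytes, with no test, and at least 10.6-fold higher in granulocytes (adjusted p = 2.92e-09). *ENPP2*, which encodes autotaxin, the enzyme that makes extracellular LPA, rose in granulocytes from 0.383 ± 0.0474 to 1.39 ± 0.241 CPM, by 1.82 (SE 0.35, adjusted p = 3.5e-05). *PLPP1*, a lipid phosphate phosphatase gene, rose in granulocytes from 2.60 ± 0.462 to 5.49 ± 0.158 CPM, by 1.07 (SE 0.16), and had a log2 fold change of -0.12 (SE 0.11) in promyelocytes. The median log2 fold change of the list was -0.06 in promyelocytes and 0.39 in granulocytes, the latter also with *SGPP2* at its bound.

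Of 16 genes of the cyclic AMP pathway, into which the adenosine receptors feed, 14 were tested in each cell type. In promyelocytes 3 rose and 3 fell (median log2 fold change -0.12), and in granulocytes 7 rose and 3 fell (median 0.19). *PDE4B*, a phosphodiesterase that degrades cyclic AMP, rose from 20.3 ± 0.201 to 143 ± 3.94 CPM in promyelocytes, by 2.84 (SE 0.06, adjusted p = 1.69e-17), and from 36.4 ± 2.10 to 380 ± 2.74 CPM in granulocytes, by 3.37 (SE 0.06, adjusted p = 1.24e-34). *PDE4A*, of the same family, rose by 1.00 (SE 0.11) in promyelocytes and by 2.42 (SE 0.38) in granulocytes, where it started from 5 to 17 counts and was 3.22 without vehicle library 3. *PDE4D*, a further member, fell in both, with log2 fold changes of -0.39 (SE 0.07) and -0.97 (SE 0.08). *CREB1*, the cyclic AMP response element binding factor, rose by 0.69 (SE 0.06) and 0.86 (SE 0.05). *PRKACB*, a catalytic subunit of protein kinase A, fell in granulocytes from 163 ± 5.89 to 88.4 ± 3.22 CPM, with a log2 fold change of -0.90 (SE 0.05), and had one of -0.08 (SE 0.06) in promyelocytes.

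**Figure D4:**
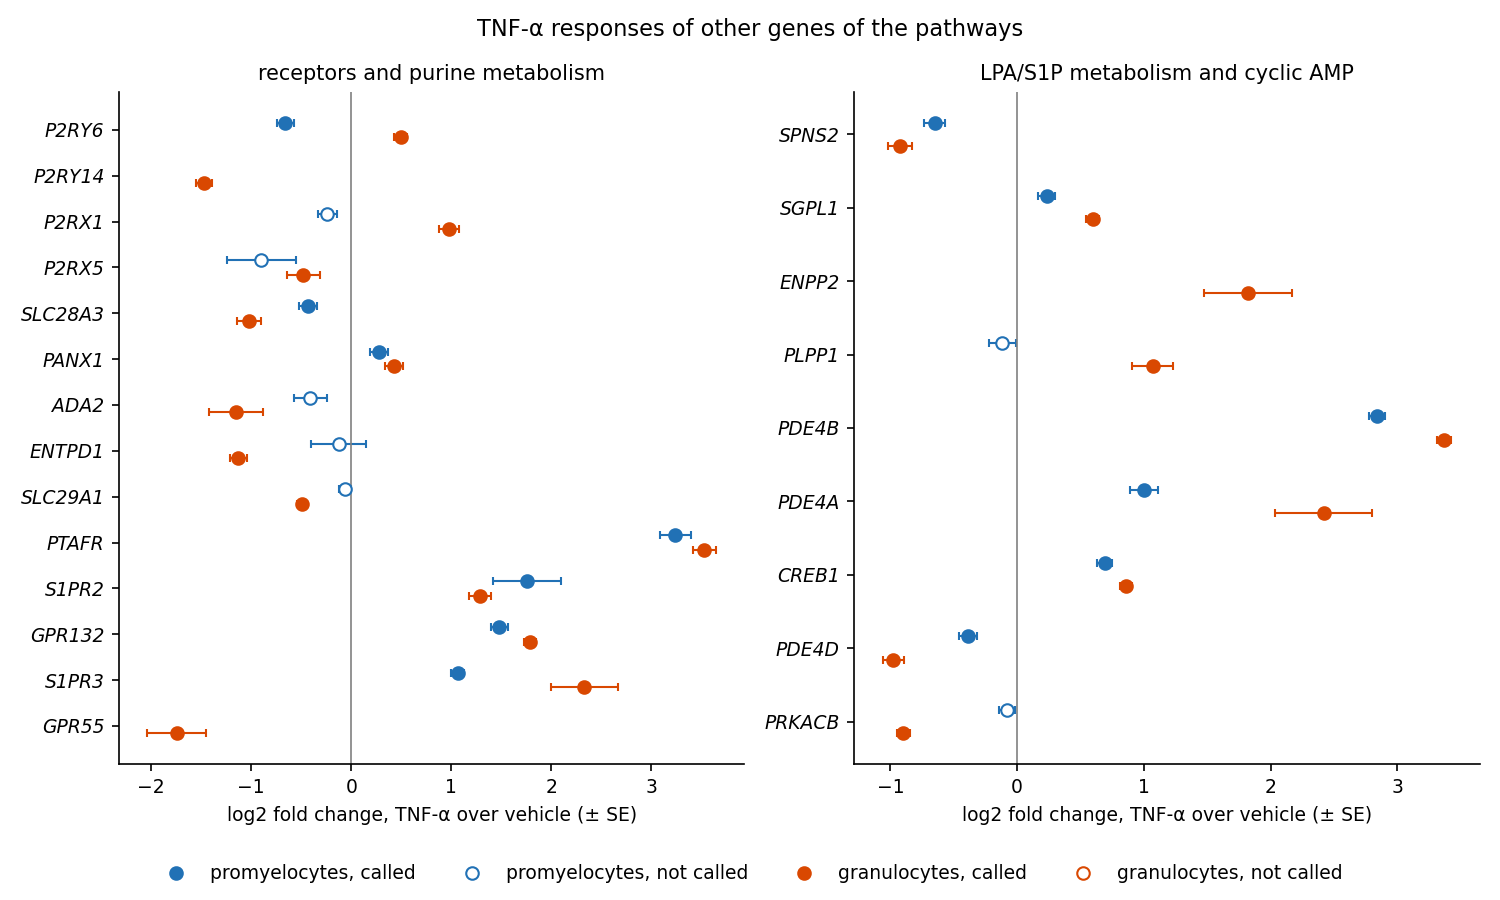
Log2 fold change of TNF-α over vehicle (horizontal axis) with its SE for the other genes of the pathways named in the text, promyelocytes in blue and granulocytes in orange, filled where the gene was called. *SGPP2* is left out because its vehicle libraries had 0 or 1 count; *P2RY6* lies on opposite sides of 0 in the 2 cell types, and *PTAFR* and *PDE4B* lie farthest to the right.

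For each gene, the gene with the most similar pattern over the 12 libraries was found by Pearson's r of log2 CPM among 18123 genes. These libraries share 2 experiments and 1 treatment, so high values are common, and r is given as a description. It was 0.999 between *ADA* and *BTG1*, 0.998 between *LPAR2* and *TEP1*, 0.997 between *S1PR4* and *APEX1*, 0.996 between *P2RX7* and *SNHG26* and 0.993 between *ADORA3* and *CYP1B1*. *P2RX4* was nearest to *NFKBID* (0.988) and *ADORA2A* to *EML2* (0.980). *P2RY2* was nearest to ENSG00000260401 (0.993) and *LPAR5* to ENSG00000243155 (0.930), neither of which has a symbol in the table used, and *LPAR5* had the lowest value of the 9 genes with counts in most libraries.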

How the data were processed

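Per the labels and the file header, the authors removed ribosomal RNA, aligned paired-end reads to hg38 with STAR 2.5.3a and counted read pairs per gene with featureCounts 1.5.2, on the reverse strand and from primary, non-chimeric alignments of both ends; they deposited the raw counts. Pairs on exons of several genes are not counted. Symbols came from a table of gene names (57577 of 58288 identifiers matched). The members and all lists were chosen with earlier results of these data known.

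Promyelocytes and granulocytes were fitted separately in R 4.3.3 with edgeR 4.0.16 (TMM, filterByExpr with a minimum count of 10 and total of 15, quasi-likelihood test, Benjamini-Hochberg, 0.05). SEs follow from each log2 fold change and its F statistic. Differences between responses were the interaction in a fit of 12 libraries. CPM used TMM over 12 libraries. Genes outside the 10 were named as follows: *TMIGD3*, up to 4 called genes with the largest absolute log2 fold change per list and cell type, and the most correlated gene of each member. Alternatives were DESeq2 1.42.0, its size factors, no filter, a replicate block, 1 fit of all libraries, a threshold of 0.01, leaving out each library and, chosen after seeing the data, removal of trends with GC content and length. On simulated data with 200 changed genes, 174 were recovered among 16250 promyelocyte genes (13 false calls) and 179 among 16944 granulocyte genes (15 false calls). At the smallest change simulated, 74.6% and 73.1% were recovered. Some called changes were smaller than this, such as that of *ADA* in granulocytes (log2 fold change 0.19). Counts were simulated with the dispersions of the same fits, so departures from that model are not covered. The changed genes were drawn from well-counted genes only, so this recovery does not cover genes with few counts.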

Additional observations from a re-analysis of the deposited data

Results flagged for a closer look

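Listed are *TMIGD3* and those of the 10 genes and of the genes named from the 5 lists that passed 1 test. It was the edgeR test of the difference between the granulocyte and the promyelocyte response, and each value is that difference on the log2 scale. In such a difference cell type and experiment cannot be told apart. Of the 46 other genes tested, 23 were called, 13 higher and 10 lower in granulocytes, and those not named above are left out. Of all genes tested, 14.1% were called higher and 9.88% lower. For the 10 genes, chosen by their responses, a call is a description. Among the 10 genes it was 1.12 for *ADORA2A*, -2.80 for *ADORA3*, 0.64 for *P2RX4* and 0.67 for *P2RY2*. Among the purinergic receptors and the genes of nucleotide handling it was 1.19 for *P2RY6*, 1.26 for *P2RX1*, -0.55 for *SLC28A3*, -0.96 for *ENTPD1* and -0.39 for *SLC29A1*. Among the lysophospholipid genes it was 0.34 for *GPR132*, 1.31 for *S1PR3* (0.99 to 1.80 with 1 library left out), 0.40 for *SGPL1* and 1.23 for *PLPP1*. In the cyclic AMP pathway it was 0.57 for *PDE4B*, 1.45 for *PDE4A* (2.25 without vehicle library 3 of the granulocytes), 0.21 for *CREB1*, -0.55 for *PDE4D* and -0.78 for *PRKACB*. For *TMIGD3*, the neighbor of *ADORA3*, it was -1.79. The call of *GPR132* was lost at a threshold of 0.01, with no filter (0.26) and with the GC content and length trends removed (0.16). It was also lost without vehicle library 3 of the promyelocytes (0.29). That of *CREB1* was lost under 5 of 6 alternative settings, namely a threshold of 0.01, DESeq2 (0.15), its size factors (0.15), no filter (0.12) and the replicate block (0.21), and in 8 of the 12 fits that each left out 1 library (0.18 to 0.22). Groups of 3 libraries were not examined for outlying libraries.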

How the results depend on the processing

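Counts of called genes among the 10 and among the 74 other genes stayed within 1.5 times their values under every alternative run. Of all genes, 1438 were called in promyelocytes at a threshold of 0.01 and 1598 (without vehicle library 2) to 2475 with each library left out, against 2405, and 2843 differed between the cell types at 0.01, against 4351. Among the 10 genes and the others named by the rule, leaving out 1 library turned the direction of 4 log2 values, none of them called, which ranged as given: *ADA* in promyelocytes (-0.028 to 0.13), *ENTPD1* in promyelocytes (-0.30 to 0.16), *TMIGD3* in promyelocytes (-0.23 to 0.17) and the difference between the responses of *P2RX7* (-0.11 to 0.57). Same-numbered libraries did not deviate together (residual correlations of -0.146 to -0.0129). The replicate block, which therefore pairs nothing, lowered the calls over all genes to 1833 in promyelocytes, 7721 in granulocytes and 3349 for the difference. Depth limits *ADORA2B* in both cell types and *P2RX7* in granulocytes. With 3 flasks of 1 cell line per group, values cover the spread between flasks of 1 experiment.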
